A study of Bombyx mori with 4 samples.

Results

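The midguts of heated silkworm larvae (Bombyx mori) were compared between 2 varieties, 932 and HY. Members were the gene models with at least 1 tag per 1000000 tags (RPM) in 1 of the 2 heated libraries, which held for 2990 of 5558 models. For each of these the log2 ratio of RPM plus 1 was taken as 932 over HY. The added 1 makes the ratio understate the difference of faint genes, and RPM are not corrected for gene length. The ratio was also centred on the median gene, and genes 2-fold or more apart were called higher or lower in 932. The labels name 932 a thermotolerant and HY a thermosensitive variety. The groups were 932 heat and HY heat (larvae exposed to high temperature) and, set beside them, 932 control and HY control (larvae not exposed). All larvae were on day 2 of the 5th instar, and 1 library was made from each of the 4 groups. How hot and how long the exposure was, and how many larvae of which sex went into a library, is not given in the labels. With 1 library per group no difference was tested and none has a replicate check. Intervals are exact 95% bounds of the tag-number ratio on the log2 scale, with nothing added, so they hold counting error alone.

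The larval midgut is a tube of columnar, goblet and endocrine cells wrapped in muscle. It secretes proteases, lipases and glycosidases into the lumen, is lined by a chitin-rich peritrophic matrix, and meets swallowed microbes with recognition proteins and antimicrobial peptides. On heating, insect cells make heat shock proteins, chaperones that hold or refold damaged proteins: the small heat shock proteins bind unfolding proteins without ATP, while HSP70 and HSP90 work through ATP cycles with co-chaperones.

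The heated libraries held 5830000 tags for 932 and 6010000 for HY, and the unheated ones 6140000 and 5800000, as worked out from the values. The listed gene models took 15.2% of the tags in 932 heat and 15.0% in HY heat. A tag was worth 0.172 and 0.167 RPM, and a gene listed at 0 had 0 or 1 tag. At the edge of the floor, 113 genes entered with a higher value of 1.0 RPM, and 81 with 0.86 RPM stayed out. The midgut markers stood high in both heated libraries: the 35 aminopeptidase N, alkaline phosphatase, trypsin-like, chymotrypsin-like and intestinal mucin models summed to 5429 RPM in 932 and 5431 in HY. Unheated the sums were 8835 and 5120.1 RPM. After heat 27 markers passed the floor. Of these 8 were higher in 932 and 4 lower, beside 14.1% and 20.8% of all genes. Visceral muscle markers summed to 929 RPM in 932 and 1179.7 in HY, and their part in the differences was not tested. In whole tissue of this kind, fewer cells of a type and less RNA per cell cannot be told apart.

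More genes stood higher in HY than in 932 after heat. Of the 2990 genes, 421 (14.1%) were at least 2-fold higher in 932 and 621 (20.8%) at least 2-fold lower, and 1948 lay within 2-fold. The median log2 ratio was -0.26, with quartiles of -0.88 and 0.44. That split depended on the scale: centred on the median gene, 534 genes (17.9%) were higher in 932 and 352 (11.8%) lower. The share of calls that were higher in 932 was 40.4% as deposited and 60.3% centred. The counting interval lay wholly beyond 2-fold for 238 genes higher in 932 (7.96%) and for 278 lower (9.30%). With at least 10 RPM in 1 heated library, 1098 genes remained, of which 14.5% were higher in 932 and 21.4% lower. Many calls were of faint genes: 661 genes reached between 1 and 2 RPM in their higher library, and 222 of these were counted as higher or lower.

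**Figure D1:**
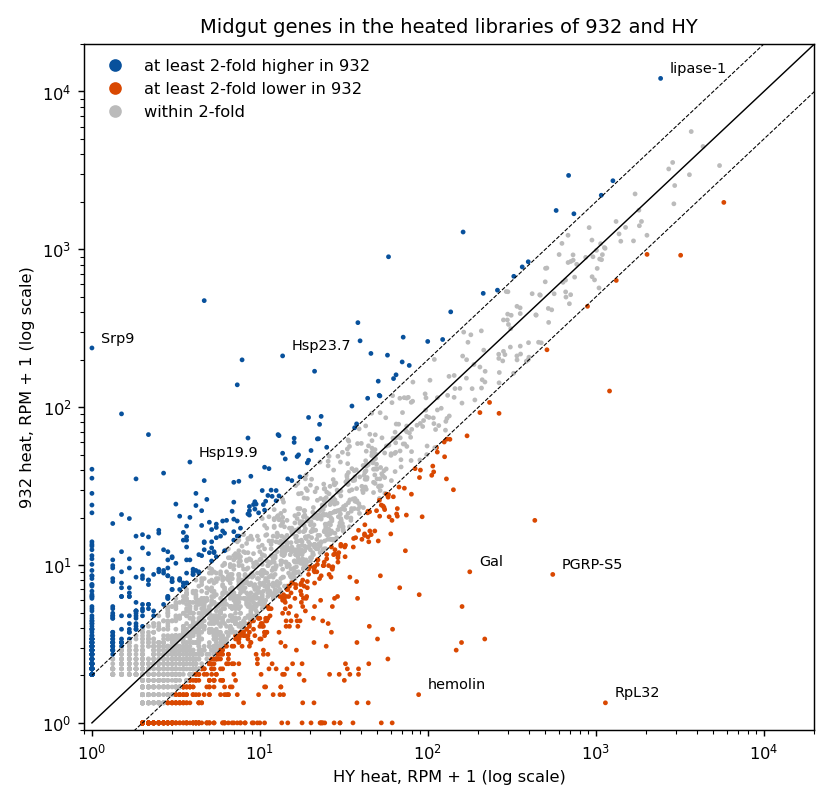
Each point is 1 of the 2990 gene models, with its level in HY heat on the x axis and in 932 heat on the y axis (RPM plus 1, log scales, 1 library each). The solid line marks equal levels and the dashed lines 2-fold. The 421 genes at least 2-fold higher in 932 lie above the upper dashed line and the 621 lower ones below the other, with RpL32 and PGRP-S5 far on the HY side and Srp9, Hsp23.7 and lipase-1 on the 932 side.

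Small heat shock proteins included the heat shock genes with the widest gaps in favour of 932. Of 7 models 6 passed the floor, 3 were at least 2-fold higher in 932 and 1 was lower, beside 14.1% and 20.8% of all genes, and the median log2 ratio was 1.14 (1.39 centred), against -0.26 over all genes. Without BGIBMGA013545, which the first draft of the list did not hold, the median of 5 genes was 1.55 and none was lower. Hsp23.7 (BGIBMGA004515), an ATP-independent holding chaperone, read 210.3 RPM in 932 heat and 12.7 in HY heat, a log2 ratio of 3.95 (interval 3.72 to 4.41). It had been 12.9 RPM in 932 control and 2.41 in HY control, so 932 was the higher variety with and without heat. Hsp19.9 (BGIBMGA004540), of the same family, stood at 43.9 RPM in 932 heat and 2.83 in HY heat (3.55, interval 3.25 to 4.76). Unheated it was 0.81 RPM in 932 and listed at 0 in HY. Another model, BGIBMGA005755, read 47.7 and 15.7 RPM in the heated libraries of 932 and HY, for a log2 ratio of 1.55, and 14.8 and 11.04 in the unheated ones.

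The remaining small heat shock proteins were closer or ran the other way. Hsp21.4 (BGIBMGA000944) was 55.4 RPM in 932 heat and 33.1 in HY heat, a log2 ratio of 0.73, much as in the unheated pair, where it was 0.77. Heat shock protein 25.4 (BGIBMGA005781) read 2.23 and 2.00 RPM after heat, and its interval, -1.09 to 1.42, spans no difference. The small heat shock protein model BGIBMGA013545 was listed at 0 in both 932 libraries, and was at 1.21 RPM in HY control and 5.16 in HY heat. Small heat shock protein 22.2 (BGIBMGA004630) stayed under the floor, at 0.51 and 0.67 RPM. Summed over the 7 models, the family took 360.1 RPM in 932 heat and 72.1 in HY heat, against 101 and 58.8 unheated.

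The ATP-driven chaperones differed in both directions. Of the 5 HSP70 models, 1 was higher in 932 and 2 were lower, beside 14.1% and 20.8% of all genes. Their median was -1.0 (-0.74 centred), but 0.27 over those with at least 10 RPM. Heat shock protein 70-3 (BGIBMGA007950) was the higher one, at 39.8 RPM in 932 heat and 10.3 in HY heat, a log2 ratio of 1.85 (interval 1.54 to 2.38). The unheated libraries read 13.2 and 12.2 RPM, so the varieties stood together there. Heat shock protein 70-14 (BGIBMGA006574) read 6.52 RPM in 932 heat and 15.3 in HY heat (-1.12), and 70-p4 (BGIBMGA001635) 0.51 and 3.33 (-1.52, interval -5.09 to -0.94). A heat shock cognate 70 model (BGIBMGA007949) was at 2.92 and 6.83 RPM, a log2 ratio of -1.0 that fell just short of the 2-fold rule. Hsc70-4 (BGIBMGA002381), the constitutive cytosolic HSP70 and the family member with the most tags, was at 1144 RPM in 932 heat and 946 in HY heat, a log2 ratio of 0.27. Its levels set the family's sum, which was 1193 RPM in 932 heat and 982 in HY heat.

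Among the 10 HSP90 and chaperonin genes 1 was higher and 2 were lower, near the 14.1% and 20.8% of all genes. Their median of -0.08 turned to 0.17 once centred. Hsp90 (BGIBMGA004612), the cytosolic chaperone of kinases and receptors, read 35.2 RPM in 932 heat and 16.3 in HY heat (1.06, interval 0.75 to 1.47). Without heat the order was the other way, at 0.81 RPM in 932 and 3.97 in HY. A model named heat shock protein 90 beta (BGIBMGA012753) read 298 and 162 RPM in the heated pair (0.87). Heat shock protein 60 (BGIBMGA007349), which folds proteins inside mitochondria, was level at 4.63 and 5.16 RPM. TRAP1 (BGIBMGA001241), the mitochondrial relative of Hsp90, was level too, at 22.6 and 23.3 RPM. A model named heat shock protein 1 (BGIBMGA004103), which this list did not hold and its counts leave out, read 356 and 296 (0.27).

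Co-chaperones were mixed, with 4 of 17 higher in 932 and 2 lower, beside 14.1% and 20.8% of all genes. Their median was 0.13 (1.7 over those with at least 10 RPM). Cdc37 (BGIBMGA010245), which loads kinases onto HSP90, read 22.8 RPM in 932 heat and 3.16 in HY heat (2.52, interval 2.15 to 3.63). A putative hsp70 binding protein (BGIBMGA013070) was at 40.7 RPM in 932 heat and 9.66 in HY heat (1.97), against 6.68 and 5.00 in the unheated libraries. DnaJ-3 (BGIBMGA003153), a member of the J-domain family that stimulates HSP70, differed as much without heat, with 14.1 and 1.17 RPM after heat and 15.3 and 1.03 without. The 2 lower genes were faint: DnaJ-2 (BGIBMGA012541) read 1.72 and 4.66 RPM, and BGIBMGA004182, named as an HSP70-interacting protein, was listed at 0 in 932 heat and read 2.00 in HY heat. DnaJ-1 (BGIBMGA006196) and DnaJ-4 (BGIBMGA006824) were close, at 4.63 and 4.16 RPM and at 4.12 and 2.83, and DnaJ-6 (BGIBMGA014455) and Ahsa1 (BGIBMGA011297), an HSP90 activator, stayed under the floor. Another gene named as a putative heat shock protein 70-interacting protein (BGIBMGA010635), which the co-chaperone list did not hold and its counts leave out, was far lower in 932 in both states. It was 2.23 RPM in 932 heat and 158 in HY heat, and 1.95 and 138 unheated.

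**Figure D2:**
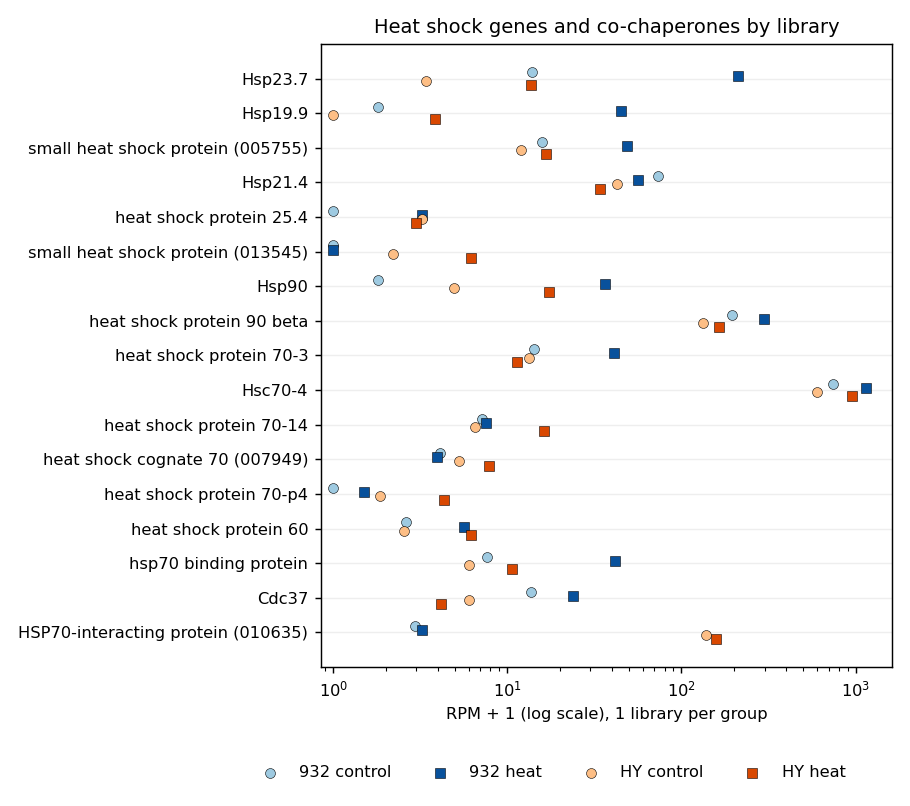
Level of 17 heat shock proteins and co-chaperones (RPM plus 1, log scale) in each of the 4 libraries, circles for control, squares for heat, blue for 932 and orange for HY. Hsp23.7, Hsp19.9 and the hsp70 binding protein have their 932 heat square well to the right of the other 3 libraries, while Hsc70-4 and heat shock protein 60 have both heated squares together. Numbers in brackets are the last digits of the gene model.

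In the lists that hold the digestive enzymes more genes were higher than lower in 932 after heat. Of 24 trypsin- and chymotrypsin-like serine proteases, which cut dietary protein, 10 were higher in 932 and 2 lower, beside 14.1% and 20.8% of all genes, with a median of 0.76. The list as first drafted, before it was edited with values seen, had 10 of 27 higher, 4 lower and a median of 0.65. Unheated the median was 2.12, with 16 of 26 higher, beside 17.9% of all genes in the unheated pair. A trypsin (BGIBMGA001320) read 168 RPM in 932 heat and 20.1 in HY heat (3.0, interval 2.79 to 3.34). A chymotrypsin-like proteinase (BGIBMGA008279) was at 12.5 RPM in 932 heat and listed at 0 in HY heat, as it was in HY control. Serine protease 36 (BGIBMGA008514), among the 10 genes with the most tags in both libraries, stood closer, at 5575 RPM in 932 heat and 3693 in HY heat (0.59). Its unheated levels lay further apart, at 6641 and 663 RPM.

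Of the 28 aminopeptidases and carboxypeptidases, which trim peptides from their ends, 12 were higher in 932, 2 lower, against the same 14.1% and 20.8% of all genes. The median was 0.58, against 0.16 unheated. Not every member is named as a digestive enzyme. Among the 12 are models named as a lysosomal Pro-X (BGIBMGA013534), a plasma glutamate (BGIBMGA001274) and a vitellogenic carboxypeptidase (BGIBMGA013085). Aminopeptidase N-5 (BGIBMGA008063), of a brush-border family that in several moths binds Bt toxins, read 198 RPM in 932 heat and 6.83 in HY heat (4.67, interval 4.41 to 5.35). It had been 234 and 23.8 RPM unheated. A carboxypeptidase (BGIBMGA004830) was level without heat, at 705 RPM in 932 and 619 in HY, and far apart after it, at 1287 and 161 (2.99, interval 2.90 to 3.10). A putative carboxypeptidase A (BGIBMGA004801) ran the other way, at 2.75 RPM in 932 heat and 25.6 in HY heat. The other lower gene was the abundant aminopeptidase N Apn4 (BGIBMGA008060), named after its values were seen. Apn4 read 928 RPM in 932 heat and 2015 in HY heat (-1.12, interval -1.17 to -1.07).

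Lipases, which release fatty acids from fat, were of the same kind. The list was matched by name and holds more than digestive lipases, such as a phospholipase D under the floor. Of 13 lipases 6 were higher in 932 and 1 lower, beside 14.1% and 20.8% of all genes, with a median of 0.9 (0.25 with 10 added in place of 1) after heat and 2.96 without. Among the 6 were faint genes: an adipose triglyceride lipase (BGIBMGA001058), at 2.23 RPM in 932 heat, and a neutral lipase (BGIBMGA001506), at 1.03. Lipase-1 (BGIBMGA002670), the gene with the most tags in the 932 heat library, read 12105 RPM there and 2427 in HY heat (2.32, interval 2.29 to 2.34). A neutral lipase (BGIBMGA001508) was at 2938 RPM in 932 heat and 687 in HY heat (2.1), against 2182 and 60.2 unheated. Another neutral lipase (BGIBMGA003920) was the reverse, at 2.40 RPM in 932 heat and 217 in HY heat (-6.0), and at 3.09 and 192 in the controls. A triacylglycerol lipase (BGIBMGA010400) was close between the heated libraries, at 3229 and 2713 RPM, although the unheated ones were at 22885 and 470.4. The sum over all 17 lipases was 22599 RPM in 932 heat and 9222 in HY heat, and 45385 and 3036 unheated.

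Of 23 genes of carbohydrate digestion and sugar transport, 10 were higher in 932 and 2 lower, beside 14.1% and 20.8% of all genes (median 0.72, or 0.22 with 10 added). The list was matched by name, and not every member is a digestive enzyme. Among the 10 are a glucosidase II beta subunit (BGIBMGA013633), a mannosyl-oligosaccharide mannosidase (BGIBMGA000689) and a lysosomal mannosidase (BGIBMGA004998). Suc1 (BGIBMGA005696), a beta-fructofuranosidase that splits sucrose, read 218 RPM in 932 heat and 44.8 in HY heat (2.26), and 226 and 31.6 unheated. Gal (BGIBMGA006815), a beta-galactosidase, stood in opposite orders: it was 8.06 RPM in 932 heat and 176 in HY heat (-4.29, interval -4.91 to -4.03), but 70.4 in 932 control and 6.38 in HY control. A glycosyl hydrolase of family 31 (BGIBMGA007198) was not held by the carbohydrate list, whose counts leave it out. This gene was listed at 0 in both 932 libraries and read 28.97 RPM in HY heat and 40.7 in HY control.

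The peritrophic matrix genes, which build the chitin and protein sleeve around the food, differed in both directions. Of 10 genes 1 was higher in 932 and 4 were lower, beside 14.1% and 20.8% of all genes, and the median was -0.46 (-0.21 centred, and -0.09 with 2 lower over those with at least 10 RPM) against 0.98 unheated. Peritrophic membrane chitin binding protein 1 (BGIBMGA001491), the gene with the most tags in the HY heat library, read 5774 RPM there and 1982 in 932 heat (-1.54, interval -1.57 to -1.51). Without heat 932 had been the higher, at 6170.4 RPM against 3129. A chitin binding domain 3 protein (BGIBMGA009067) was at 4.46 RPM in 932 heat and 16.98 in HY heat, against 0.65 and 395 unheated. Peritrophin 1 (BGIBMGA001504) was the gene higher in 932, at 12.9 RPM against 3.66.

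Among immune genes more were lower than higher in 932. Of 11 antimicrobial and recognition genes 6 were at least 2-fold lower in 932 and 1 was higher, beside 20.8% and 14.1% of all genes, and 4 lay within 2-fold. The median was -1.46 (-1.2 centred). The unheated median was -1.61, with 9 of 12 lower, beside 15.1% of all genes in the unheated pair. The list as first drafted also held a hemolin-interacting protein, and its median was -0.74 over 12 genes, so the size of the median depends on that gene. PGRP-S5 (BGIBMGA012866; the hit is named PGRP-S6), of the family that binds bacterial peptidoglycan, read 7.72 RPM in 932 heat and 553 in HY heat (-5.99, interval -6.62 to -5.74). It was further apart in the controls, at 1.14 and 619 RPM. Hemolin (BGIBMGA008736), an immunoglobulin-domain protein that moths make on bacterial infection, was at 0.51 RPM in 932 heat and 87.1 in HY heat (-5.87, interval -9.68 to -5.85). In HY control it was 10 RPM and in 932 control it was listed at 0.

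The lebocin gene Leb3 (BGIBMGA006775), for a proline-rich antibacterial peptide, was listed at 0 in both 932 libraries and read 28.97 RPM in HY heat and 1.90 in HY control. BGRP1 (BGIBMGA011608), which binds beta-1,3-glucan of fungal walls, was at 2.92 RPM in 932 heat and 60.6 in HY heat (-3.97). Its relative BGRP4 (BGIBMGA000353) was lower in 932 after heat, at 15.4 against 44.1 RPM, yet in the controls it was 321 in 932 and 1.72 in HY. Of 7 serpins and other protease inhibitors 4 were lower in 932 and none was higher, beside 20.8% of all genes lower (median -1.0, -0.74 centred). Serpin-5 (BGIBMGA013849) read 2.40 RPM in 932 heat and 49.1 in HY heat (-3.88). Hemocyte markers were nearly absent: the 10 models, of which some are disintegrin metalloproteinases, summed to 2.75 RPM in 932 heat and 6.33 in HY heat, with 7 and 6 listed at 0. Fat body markers summed to 48.9 and 35.5 RPM over 14 models, with 5 and 11 listed at 0. Their part in the immune differences was not tested.

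**Figure D3:**
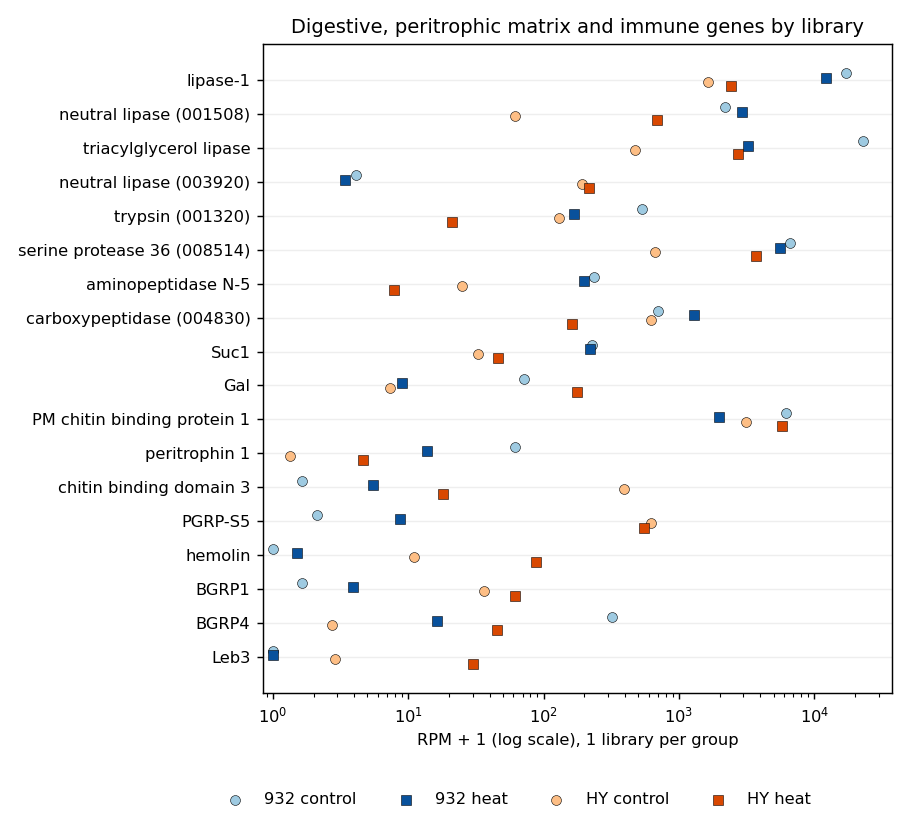
Level of 18 digestive, peritrophic matrix and immune genes (RPM plus 1, log scale) in the 4 libraries, with circles for control, squares for heat, blue for 932 and orange for HY. Lipase-1 and aminopeptidase N-5 have both blue symbols to the right of both orange ones, PGRP-S5 and BGRP1 have them to the left, and Gal and BGRP4 change order between control and heat. Numbers in brackets are the last digits of the gene model.

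Detoxification genes differed in both directions in each of 4 families. Of 7 UDP-glycosyltransferases, which attach sugars to plant toxins and hormones, 5 were higher in 932 and 2 lower, beside 14.1% and 20.8% of all genes. Their median of 1.84 was 0.21 over those with at least 10 RPM, 0.68 with 10 added and 0.96 as a mean. The relatives UGT33D7 (BGIBMGA013861) and UGT33D5 (BGIBMGA013860) were mirror images: UGT33D7 read 27.4 RPM in 932 heat and was listed at 0 in both HY libraries, and UGT33D5 read 22.5 RPM in HY heat and was listed at 0 in both 932 libraries. Close copies of this kind can share reads, and how shared reads were counted is not given in the sources used here. Carboxylesterases were more often higher than lower in 932, with 13 of 26 higher and 5 lower, beside 14.1% and 20.8% of all genes. Centred, 2 were lower, and the median of 0.74 was 1.5 over those with at least 10 RPM and 0.15 with 10 added. The list as first drafted had 14 of 27 higher and a median of 1.02. Antennal esterase CXE14 (BGIBMGA007546) was at 17.3 RPM in 932 heat and 0.33 in HY heat. Integument esterase 2 (ie2, BGIBMGA009544) was listed at 0 in 932 heat and read 34.8 RPM in HY heat.

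Cytochrome P450 genes were divided, 4 of 9 higher and 3 lower, beside 14.1% and 20.8% of all genes. An oxidase model named P450 333B11 (BGIBMGA001276), a name that other models share, read 65.02 RPM in 932 heat and 11.99 in HY heat (2.35). Cyp6ab5 (BGIBMGA012089) read 3.09 and 43.8 (-3.45). Of 9 glutathione S-transferases 2 were higher and 3 lower, beside the same shares of all genes. GSTe2 (BGIBMGA002279) was listed at 0 in both 932 libraries against 22.6 RPM in HY heat. A ferritin (BGIBMGA008768), which stores iron, stood apart from the other antioxidant and iron genes, at 342 RPM in 932 heat and 37.3 in HY heat (3.16, interval 3.00 to 3.40). In that list of 15 genes 2 were higher and 1 was lower as deposited, beside 14.1% and 20.8% of all genes. Once centred 5 were higher and none lower, beside 17.9% and 11.8%.

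Housekeeping groups lay near the median of all genes. Among 67 cytosolic ribosomal proteins 6 were higher in 932 and 5 lower, beside 14.1% and 20.8% of all genes. Their median was -0.12 (0.14 centred). RpL32 (BGIBMGA000066) was the exception, at 0.34 RPM in 932 heat and 1138 in HY heat, and listed at 0 in 932 control against 788 RPM in HY control. The other 66 ribosomal protein genes ran from -1.34 to 1.31 in log2 ratio, and 56 of them lay within 2-fold. Srp9 (BGIBMGA001186), a subunit of the signal recognition particle that steers secreted proteins to the endoplasmic reticulum, was the reverse of RpL32. It read 236 RPM in 932 heat and 90.2 in 932 control and was listed at 0 in both HY libraries. Both genes are used by cells of every kind, so a listing at 0 is given here as a listing and not as absence of the RNA.

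The heated counts of the next 4 lists stand beside 14.1% of all genes higher in 932 and 20.8% lower. Of 36 respiratory chain and ATP synthase genes 4 were higher and none lower. Their median was 0.05 (-0.24 over those with at least 10 RPM), and 0.61 unheated. Of 11 V-ATPase subunits, which pump protons in goblet cells, 1 was higher and none lower (median 0.18). Unheated, 8 of 12 had been higher in 932 (median 1.13), beside 17.9% of all genes in the unheated pair. Subunit G (BGIBMGA013678) was at 622 and 498 RPM after heat and at 2196 and 742 without. Among 17 proteasome genes 1 was higher and 3 were lower. Of 9 genes of protein folding, import and processing in the endoplasmic reticulum 2 were higher and 1 was lower. Calreticulin (BGIBMGA000475), a calcium-binding chaperone of glycoproteins, read 19.4 RPM in 932 heat and 2.33 in HY heat (2.61). The lower gene, a Sec61 gamma subunit (BGIBMGA013713), had the widest gap of the list. It read 1.54 RPM in 932 heat and 56.8 in HY heat (-4.51, interval -6.34 to -4.26), and 2.28 and 64.8 unheated. On centring, the medians of the ribosomal, proteasome, endoplasmic reticulum, HSP90 and antioxidant lists turned from just below 0 to just above it.

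Of 35 solute transporters 13 were higher in 932 and 4 lower, beside 14.1% and 20.8% of all genes. Their median was 0.14, and -0.13 over those with at least 10 RPM. An organic cation transporter (BGIBMGA009195) read 262 RPM in 932 heat and 38.5 in HY heat (2.74, interval 2.57 to 2.98). Fatty acid and sterol genes lay near the shares of all genes, with 5 of 17 lower in 932 and 2 higher, beside 20.8% and 14.1%. The median was -0.41 against -0.26. The list did not hold the acyl-CoA dehydrogenase Acade (BGIBMGA011308, -4.87), and its counts leave that gene out. A fatty acid binding protein (BGIBMGA012890) was at 7.55 RPM in 932 heat and 51.1 in HY heat (-2.61). In glycolysis and the citrate cycle 2 of 16 were higher and none lower, beside the same 14.1% and 20.8%. Lactate dehydrogenase (Ldh, BGIBMGA012336), which makes lactate from pyruvate, read 15.8 RPM in 932 heat and 4.16 in HY heat, the reverse of 3.75 and 9.66 unheated. Of 13 juvenile hormone and ecdysone genes 4 were higher and none lower, again beside 14.1% and 20.8%. Juvenile hormone diol kinase (Jhdk, BGIBMGA008814), which inactivates a product of juvenile hormone breakdown, was among the 4, at 833 and 395 RPM.

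**Figure D4:**
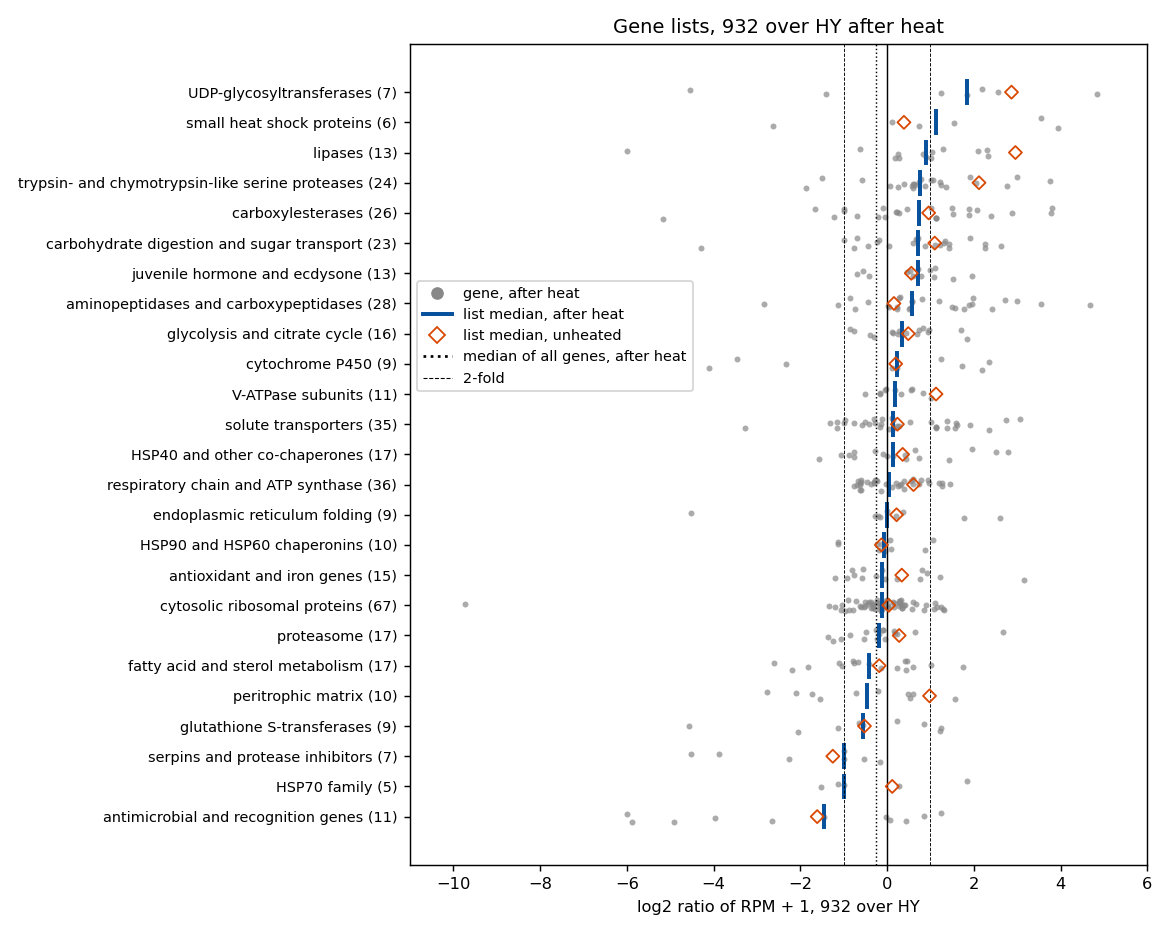
Log2 ratio of 932 over HY after heat (RPM plus 1) for the genes of 25 lists, with the number of genes above the floor in brackets. Grey points are genes, blue bars list medians, open diamonds the median of the same list without heat, and the dotted line the median of all genes at -0.26. UDP-glycosyltransferases and small heat shock proteins have the highest medians, at 1.84 and 1.14, and the antimicrobial and recognition genes the lowest, at -1.46, in these lists at a floor of 1 RPM. With a floor of 10 RPM the median of the UDP-glycosyltransferases is 0.21 and that of the serpins, at -3.88, is the lowest, and the antimicrobial list as first drafted has -0.74.

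Of 5 enteroendocrine genes above the floor 2 were higher in 932 and none was lower, and of 7 cuticle genes 3 were higher and 1 was lower, beside 14.1% and 20.8% of all genes. NPF1 (BGIBMGA006281) and NPF2 (BGIBMGA009803), neuropeptide F precursors tied to feeding in insects, read 22.99 and 12.2 RPM in 932 heat and were listed at 0 in HY heat. In 932 control they were 18.1 and 9.77 RPM. The allatostatin C precursor AST-C (BGIBMGA005369), a peptide of the same class of cells, was closer, at 34.1 RPM in 932 heat and 50.8 in HY heat. The diuretic hormone Dh31 (BGIBMGA011588) read 7.21 and 5.49 RPM after heat. The allatostatin A gene AST-A (BGIBMGA014377) was at 0.86 and 1.67 RPM after heat, and in the controls listed at 0 in 932 and at 22.4 in HY. The 6 enteroendocrine models summed to 77.9 and 57.9 RPM. Among cuticle genes, putative cuticle protein CPH45 (BGIBMGA004124) was at 896 RPM in 932 heat and 57.3 in HY heat (3.94, interval 3.81 to 4.13), against 1322 and 1902 unheated, so the HY heat library stood far below the other 3. The lower gene, larval cuticle protein 1 (BGIBMGA000324), read 1.54 RPM in 932 heat and 4.66 in HY heat. The 19 cuticle models summed to 3811 RPM in 932 heat and 1489 in HY heat. Silk gland markers did not pass the floor in either heated library.

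Some of the widest gaps lay in further genes. Acade (BGIBMGA011308), an acyl-CoA dehydrogenase of fatty acid breakdown, read 4.46 RPM in 932 heat and 159 in HY heat (-4.87, interval -5.77 to -4.59). An inward rectifier potassium channel (BGIBMGA013821) was at 1.89 and 146 RPM (-5.67). Mitochondrial ribosomal protein L14 (BGIBMGA008301) was listed at 0 in 932 heat and read 51.8 RPM in HY heat, and a SPRY domain-containing SOCS box protein (BGIBMGA008564) read 0.34 and 43.1. On the other side, a putative fascin (BGIBMGA005701), of a family that bundles actin, was at 37.2 RPM in 932 heat and 1.67 in HY heat (3.84, interval 3.58 to 5.56). The epimerase family gene SDR39U1 (BGIBMGA011707) read 19.9 and 0.50 RPM, and the esterase ae48 (BGIBMGA011218) 13.04 RPM in 932 heat and 0 in the table for HY heat. All 7 genes stood on the same side in the controls, where for instance the potassium channel read 1.14 RPM in 932 and 87.8 in HY.

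Most of the genes with the most tags lay closer together. The acyl-CoA binding protein ACBP-like (BGIBMGA002905) read 3394 RPM in 932 heat and 5445 in HY heat, RpL3 (BGIBMGA013567) 2535 and 2944, and RpL37A (BGIBMGA008903) 3551 and 2864. RpL10 (BGIBMGA002811) was higher in 932, at 2719.7 against 1262 RPM (1.11). Chbp (BGIBMGA004806), a chlorophyllide binding protein, was lower, at 916 against 3194 RPM (-1.8), although the controls were level at 1264 and 1288. Of 3 genes without a characterised product, BGIBMGA008328 read 4482 and 4342 RPM, BGIBMGA003322 2970.0 and 3603, and BGIBMGA004905 1942 and 2911.

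Part of the heated difference was also there without heat. In the unheated pair, which shares no library with the heated one, 499 of 2780 genes (17.9%) were higher in 932 and 419 (15.1%) lower, and the median was 0.05. Centring moved these shares little, to 17.0% and 15.7%, and 10.1% and 7.81% of genes had a counting interval wholly beyond 2-fold. Higher in 932 in both pairs were 215 genes, 51.1% of the heated list and 43.1% of the unheated one. Lower in both were 241 genes, 38.8% and 57.5% of the respective lists. Opposite calls were few: 11 genes were higher in 932 after heat and lower without, and 13 the reverse. Across the 2556 genes above the floor in both pairs the heated and unheated ratios correlated at 0.69 by Pearson's r and 0.6 by Spearman's rho, a description only, since genes are no replicates and the pairs share their varieties. Wide unheated gaps that were narrow after heat were those of MG7 (BGIBMGA011598), at 672 and 5.86 RPM without heat and 91.3 and 50.95 after it, and of a hatching enzyme-like protein (Hel, BGIBMGA007915), at 212 and 5.69 without and 42.2 and 43.1 after. A serine protease named for the silk gland (BGIBMGA004445) was at 92.4 and 1.03 RPM without heat and 43.9 and 29.1 after it. The varieties stood closer after heat than without for 1188 of these genes (46.5%).

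A few genes with many tags in 1 heated library were listed at 0 in the other. Of the 846 genes with at least 10 RPM in 932 heat, 11 were listed at 0 in HY heat, and 6 of these had the same pattern in the unheated pair. Of the 960 with at least 10 RPM in HY heat, 16 were listed at 0 in 932 heat, 7 of them also so without heat. Srp9, NPF1 and the chymotrypsin-like proteinase are among the former, and the family 31 glycosyl hydrolase, GSTe2, UGT33D5 and serpin-12 (BGIBMGA010216, 21.8 RPM in HY heat) among the latter.

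**Figure D5:**
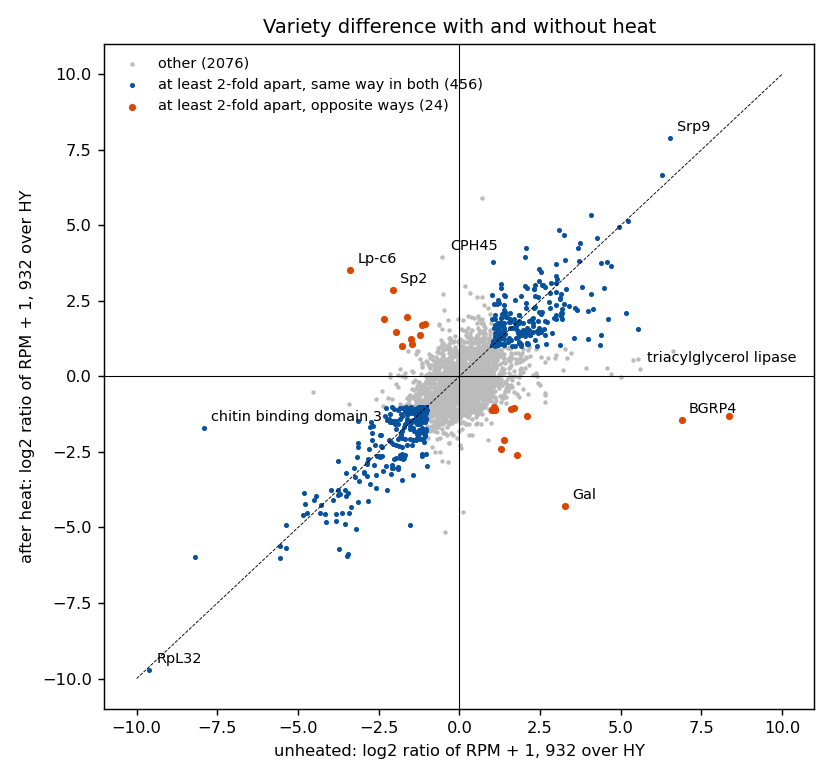
Log2 ratio of 932 over HY (RPM plus 1) without heat on the x axis and after heat on the y axis, 1 point per gene, over the 2556 genes above the floor in both pairs. Blue points are at least 2-fold apart the same way in both pairs and orange points opposite ways, and the dashed line marks equal ratios. RpL32 and Srp9 lie near the line at its 2 ends, while Gal, BGRP4 and Lp-c6 lie far from it.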

How the data were processed

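Midgut RNA was extracted with Trizol and sequenced by the standard protocol of the Illumina platform, per the labels' protocols. The deposited columns are headed as normalized TPM, per the file headers. Their values are RPM in all but name: every value of a library is a whole number of tags within 0.0051 RPM, so the authors scaled each library to 1000000 tags and gene length played no visible part. The lowest value above 0 equals 2 tags. Library totals were worked out from that step. The aligner, counter, filters and genome build are not given in the sources used here. Gene models carry the product name of their best protein hit, which is not always that of the gene itself, and symbols were matched through RefSeq (ASM3026992v2) for 895 of 905 silkworm RefSeq hits.

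Each of the 4 groups held 1 library, placed by the variety and stress labels. Ratios were log2 of RPM plus 1, for genes reaching 1 RPM in either library, as deposited and centred on the median gene. Intervals are exact conditional (Clopper-Pearson, 95%), and the calculations were tested on simulated data. Lists were matched by product name. The genes and lists were chosen with earlier results of these data known. The patterns of 11 lists were then edited after their members and values had been printed, to add or drop proteins by name, and the search for uninformative product names was widened at the same time. Results of the first patterns are given for the small heat shock, antimicrobial, serine protease and carboxylesterase lists, and elsewhere where a count or median moved.

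Genes named were taken from the 12 highest and 12 lowest ratios with a product name and at least 3 RPM, the 10 genes with the most tags in each heated library, up to 4 members of each list, every heat shock protein, and the 6 genes with the greatest difference each way between the heated and unheated ratios. Of the 153 genes this rule takes, those of its list part were named in part, as examples chosen after their values were seen. Genes without a product name in the closing section, and Apn4, which the rule does not take, were chosen after their values were seen. Alternatives were added values of 0.1 and 10, no floor, a floor of 10, centring, median-of-ratios size factors, totals without the 20 most abundant genes, a 4-fold rule, the interval and the mean of a list. Tools were Python (3.11.15) with pandas (2.3.3), numpy (2.4.6), matplotlib (3.10.9) and scipy (1.17.1). With no count columns deposited, no count test was run.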

Additional observations from a re-analysis of the deposited data

Results flagged for a closer look

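For 8 of the named genes the order of the varieties was opposite in the heated and unheated pairs, each at least 2-fold. With 1 library per group these differences were not tested. BGRP4, the glucan recognition protein, was 15.4 RPM in 932 heat and 44.1 in HY heat, and 321 and 1.72 in the controls, a heated minus unheated difference in log2 ratio of -8.34. For Gal, the beta-galactosidase, the difference was -7.57, and its levels are given in the report. The fatty acid binding protein BGIBMGA012890 read 7.55 and 51.1 RPM after heat and 21.01 and 5.35 without, a difference of -4.40.

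The other 5 ran from lower to higher in 932. Hsp90 differed by 2.52 and Ldh by 2.87 in log2 ratio, with the levels given above. Neither interval of Hsp90 lay wholly beyond 2-fold: 0.75 to 1.47 after heat, and -4.04 to -0.86 unheated, on 5 tags in 932 control and 23 in HY control. The unheated interval of Ldh, -2.13 to -0.64, did not either. A putative venom acid phosphatase (BGIBMGA006176), named for a similar protein of another insect, read 10.1 RPM in 932 heat and 2.00 in HY heat, and 2.28 and 15.5 unheated, a difference of 4.22. Sp2 (BGIBMGA009028), a storage protein, was 8.58 and 0.33 RPM after heat and 1.47 and 9.31 without, a difference of 4.91. Lp-c6 (BGIBMGA004394), a 30 kDa lipoprotein, read 10.5 RPM in 932 heat and 9.48 in HY control and stood at 0 in the table for HY heat and for 932 control. Its difference of 6.91 rests on the added 1 and is no fold. In both genes 932 heat and HY control were the libraries with the higher values.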

How the results depend on the processing

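No paired analysis was possible because each group held 1 library, and no library could be left out of a group. The deposited scale decides whether HY or 932 has more higher genes, and 1 library's scale could shift every ratio. Faint genes rest on few tags, and counts in small lists move easily. Under the alternatives, 648 of the recomputed ratios of named genes moved by less than 0.58 on the log2 scale, 117 by more, and none that was past 2-fold changed sign. Of the list medians 225 recomputed values moved by less than that. The HSP70 median changed sign with a floor of 10. So did medians near 0 that moved by less: solute transporters (0.14 to -0.13), respiratory genes (0.05 to -0.24), HSP90/60 (-0.08 to 0.1) and ER genes (-0.01 to 0.18). Values that moved further, counts that moved by over 1.5 times and an all-gene median that moved by more than 0.1 are given next, and their causes were not tested.

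With 0.1 added, gene counts were 41 lower after heat but higher unheated. List numbers higher in 932 were 2 each for V-ATPase, immune genes, 4 each for antioxidant genes, glycolysis and 7 for respiratory genes. List numbers lower in 932 were 1 each for respiratory genes, glycolysis, 4 each for co-chaperones, carbohydrate genes and 8 for solute transporters. List medians were -2.4 for serpins, 3.01 for UGTs, 3.7 for fat body markers and -1.8 for hemocyte markers.

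With 10 added, gene counts were 92 higher after heat, 118 lower after heat, 135 higher unheated, 88 lower unheated, 45 higher in both pairs, 56 lower in both, 0 higher after heat but lower unheated and 3 lower after heat but higher unheated and the all-gene median was -0.09. List numbers higher in 932 were 0 each for HSP90/60, peritrophic matrix, V-ATPase, immune genes, fatty acid genes, glycolysis, muscle markers, hemocyte markers, 1 each for carbohydrate genes, respiratory genes, GSTs, antioxidant genes, ER genes, hormone genes, fat body markers, 2 for UGTs, 3 for solute transporters, 5 each for serine proteases, midgut markers and 7 each for peptidases, carboxylesterases. List numbers lower in 932 were 0 each for small HSPs, HSP70 family, HSP90/60, co-chaperones, proteasome, antioxidant genes, solute transporters, fat body markers, hemocyte markers, cuticle markers, 1 each for serine proteases, carbohydrate genes, peritrophic matrix, GSTs, carboxylesterases and 3 for fatty acid genes. List medians were -0.34 for HSP70 family, 0.25 for lipases, -0.17 for serpins, 0.68 for UGTs, 0.15 for carboxylesterases, 0.16 for fat body markers and -0.14 for hemocyte markers.

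With no floor, the all-gene median was 0.0. List medians were -0.39 for immune genes, 0.0 for UGTs, 0.21 for fat body markers, 0.0 for hemocyte markers and 0.0 for cuticle markers.

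With a floor of 10 RPM, gene counts were 159 higher after heat, 235 lower after heat, 215 higher unheated, 145 lower unheated, 85 higher in both pairs, 85 lower in both, 3 higher after heat but lower unheated and 6 lower after heat but higher unheated. List numbers higher in 932 were 0 each for fatty acid genes, muscle markers, 1 each for GSTs, ER genes, glycolysis, hormone genes, fat body markers, 2 for UGTs, 3 for solute transporters, 4 for carbohydrate genes, 6 for serine proteases and 7 for carboxylesterases. List numbers lower in 932 were 0 each for small HSPs, HSP90/60, co-chaperones, fat body markers, cuticle markers, 1 each for HSP70 family, serine proteases, carbohydrate genes, carboxylesterases, solute transporters and 2 for peritrophic matrix. List medians were 2.55 for small HSPs, 0.27 for HSP70 family, 1.7 for co-chaperones, -2.72 for immune genes, -3.88 for serpins, 0.98 for P450s, 0.21 for UGTs, 1.5 for carboxylesterases, -1.04 for fatty acid genes, 0.94 for glycolysis and 3.72 for enteroendocrine markers.

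Centred on the median gene, gene counts were 352 lower after heat and 7 lower after heat but higher unheated. List numbers higher in 932 were 2 each for HSP90/60, V-ATPase, immune genes, 5 each for antioxidant genes, glycolysis and 8 for respiratory genes. List numbers lower in 932 were 0 each for HSP90/60, antioxidant genes, cuticle markers, 1 each for HSP70 family, co-chaperones, peptidases, carbohydrate genes, proteasome, hemocyte markers, 2 each for ribosomal proteins, carboxylesterases, solute transporters, midgut markers and 3 for fatty acid genes.

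With median-of-ratios size factors, gene counts were 388 lower after heat and 7 lower after heat but higher unheated and the all-gene median was -0.05. List numbers higher in 932 were 2 each for HSP90/60, V-ATPase, immune genes, 4 for antioxidant genes and 5 for glycolysis. List numbers lower in 932 were 0 each for HSP90/60, antioxidant genes, cuticle markers, 1 each for HSP70 family, co-chaperones, peptidases, carbohydrate genes, proteasome, hemocyte markers, 2 each for ribosomal proteins, solute transporters, midgut markers and 3 each for carboxylesterases, fatty acid genes.

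Scaled to listed totals that left out the 20 genes with the most tags, numbers lower in 932 were 1 for carbohydrate genes and 3 for carboxylesterases.

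Under a 4-fold rule, gene counts were 102 higher after heat, 137 lower after heat, 149 higher unheated, 110 lower unheated, 65 higher in both pairs, 74 lower in both, 2 higher after heat but lower unheated and 1 lower after heat but higher unheated.

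With the interval wholly beyond 2-fold, gene counts were 238 higher after heat, 278 lower after heat, 281 higher unheated and 217 lower unheated.

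By the mean in place of the median, list means were -0.3 for HSP70 family, -1.91 for serpins, 0.96 for UGTs and 1.51 for enteroendocrine markers.

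With the list patterns as first drafted, numbers higher in 932 were 2 each for HSP90/60, immune genes. List numbers lower in 932 were 0 for small HSPs and 4 for serine proteases. List medians were -0.74 for immune genes.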

Other observations

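Some genes without an informative product name were among the most different, and those given here were chosen after their values were seen. Of 1980 genes with at least 3 RPM in 1 heated library, 756 had no such name. Of these 91 were at least 2-fold higher in 932 and 173 lower, beside 14.1% and 20.8% of all 2990 genes. Those shares are at a floor of 1 RPM, and at a floor of 10 RPM they were 14.5% and 21.4%. The counts of the 756 genes lie near these shares. BGIBMGA002314 read 472 RPM in 932 heat and 3.66 in HY heat, and 143 and 0.86 in the controls. BGIBMGA004115 was at 89.7 RPM in 932 heat and 0.50 in HY heat, against 5.70 and 3.10 unheated, so its 932 heat library stood alone. On the other side, BGIBMGA003552 was listed at 0 in 932 heat and read 60.3 RPM in HY heat, and 0.33 and 13.97 RPM in the controls of 932 and HY.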
